A study of Bos taurus with 30 samples.

Results

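A group of 10 genes of the response to low oxygen were followed in bovine endometrial cells grown in a microfluidic device, the endometrium on-a-chip. The members were the rows named HIF1A, VEGFA, ADM, CA9, BNIP3, NDRG1, EGLN1, EGLN3, ANKRD37 and P4HA1, which made 10 of the 27607 genes in the count tables, and all 10 were found with 1 gene identifier each and are protein-coding. Stromal enriched cells lay in the lower chamber under a porous membrane and epithelial cells in the upper chamber. The cells came from uteri of cows that were not pregnant, at an early luteal stage, and had been separated by straining and by how fast they attach. All chips ran for 72 hours under flow. The paper's methods place the in vitro work in humidified incubators with carbon dioxide in air, and name no other gas setting. None of the groups was labelled with an oxygen level. In the glucose experiment the medium held 5 or 50 mM glucose (12 libraries), and in the insulin experiment it held 5 mM glucose with vehicle (acetic acid in saline), 1 or 10 ng/mL insulin (18 libraries). Each of the 10 groups of cell type and treatment had 3 libraries, which the submitters call biological replicates. The labels do not tie a replicate number to a cow, so the p-values measure the spread between these libraries. The cell type always goes with the chamber, and the effects of cell type and chamber cannot be told apart.

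In well oxygenated cells the prolyl hydroxylases, among them those made from EGLN1 and EGLN3, mark the alpha subunit of hypoxia-inducible factor (HIF) for destruction, and at low oxygen the subunit made from HIF1A escapes, pairs with ARNT and switches on target genes. Because this control acts on the protein, the HIF1A transcript is not a measure of HIF activity, and several targets (EGLN3, CA9, ANKRD37) are used as readouts of the pathway. In the uterus, VEGFA and ADM are known as signals to blood vessels during the remodelling of the cycle and early pregnancy. The same factor is also known to raise glucose uptake and glycolysis genes, which links this pathway to the treatments.

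Library totals were 13493503 to 16647701 counts in the glucose experiment and 8826470 to 13214728 in the insulin experiment, so 3 counts in a library, the limit that a count of 0 allows, correspond to 0.180 to 0.340 CPM (counts scaled to a common library total, per megaread). These limits cover counting error only. In epithelial libraries the summed level of 22 epithelial markers was 9366 to 17792 CPM, and the listed stromal markers summed to 1180 to 7242 CPM there against 23122 to 90171 CPM in stromal libraries. Stromal libraries held 20.3 to 408 CPM of epithelial markers in the insulin experiment and 100.1 to 6426 CPM in the glucose experiment. Libraries that stood apart were stromal 50 mM replicate 3, with 6426 CPM of epithelial markers, stromal vehicle replicate 2 (408 CPM) and stromal 10 ng/mL replicate 1 (360 CPM). Among epithelial libraries, 5 mM replicate 2 stood apart, and without replicate 2 the glucose comparison of epithelial cells had 218 protein-coding genes called in place of 0, none of them a member. Of the 6 listed endothelial genes, PECAM1 was at most 2.83 CPM and CDH5 at most 1.08 CPM. The other listed genes made up most of the endothelial sum in epithelial libraries. The endothelial list summed to 3.36 to 107 CPM, the immune list to 2.20 to 16.3 CPM, and the smooth muscle list to 567 to 4184 CPM in stromal and 19.5 to 374 CPM in epithelial libraries. Only 2 of the 5 listed immune genes, CD14 and CD68, had a gene identifier. PTPRC, CD3E and CD79A could not be matched by name, so the immune sum leaves them out. In these bulk samples, fewer cells of a type and less RNA per cell cannot be told apart.

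The main pattern among the 10 genes was one of cell type. In the insulin experiment, VEGFA, CA9, BNIP3, NDRG1, EGLN1, EGLN3 and ANKRD37 were called higher in epithelial cells against stromal ones at vehicle and at both insulin doses, while HIF1A was called at none of them. In the glucose experiment CA9 was higher in epithelial cells and HIF1A and P4HA1 were higher in stromal cells at both doses. No member passed the test in any of the 8 comparisons of glucose or insulin doses, where 0% to 0.113% of protein-coding genes did. Levels are given below as CPM in replicates 1, 2 and 3, or as mean ± SD (n = 3), and a gene is called at an adjusted p under 0.05 with a log2 fold change beyond 0.1. CPM does not account for gene length, so levels are compared between groups and not between genes.

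**Figure D1:**
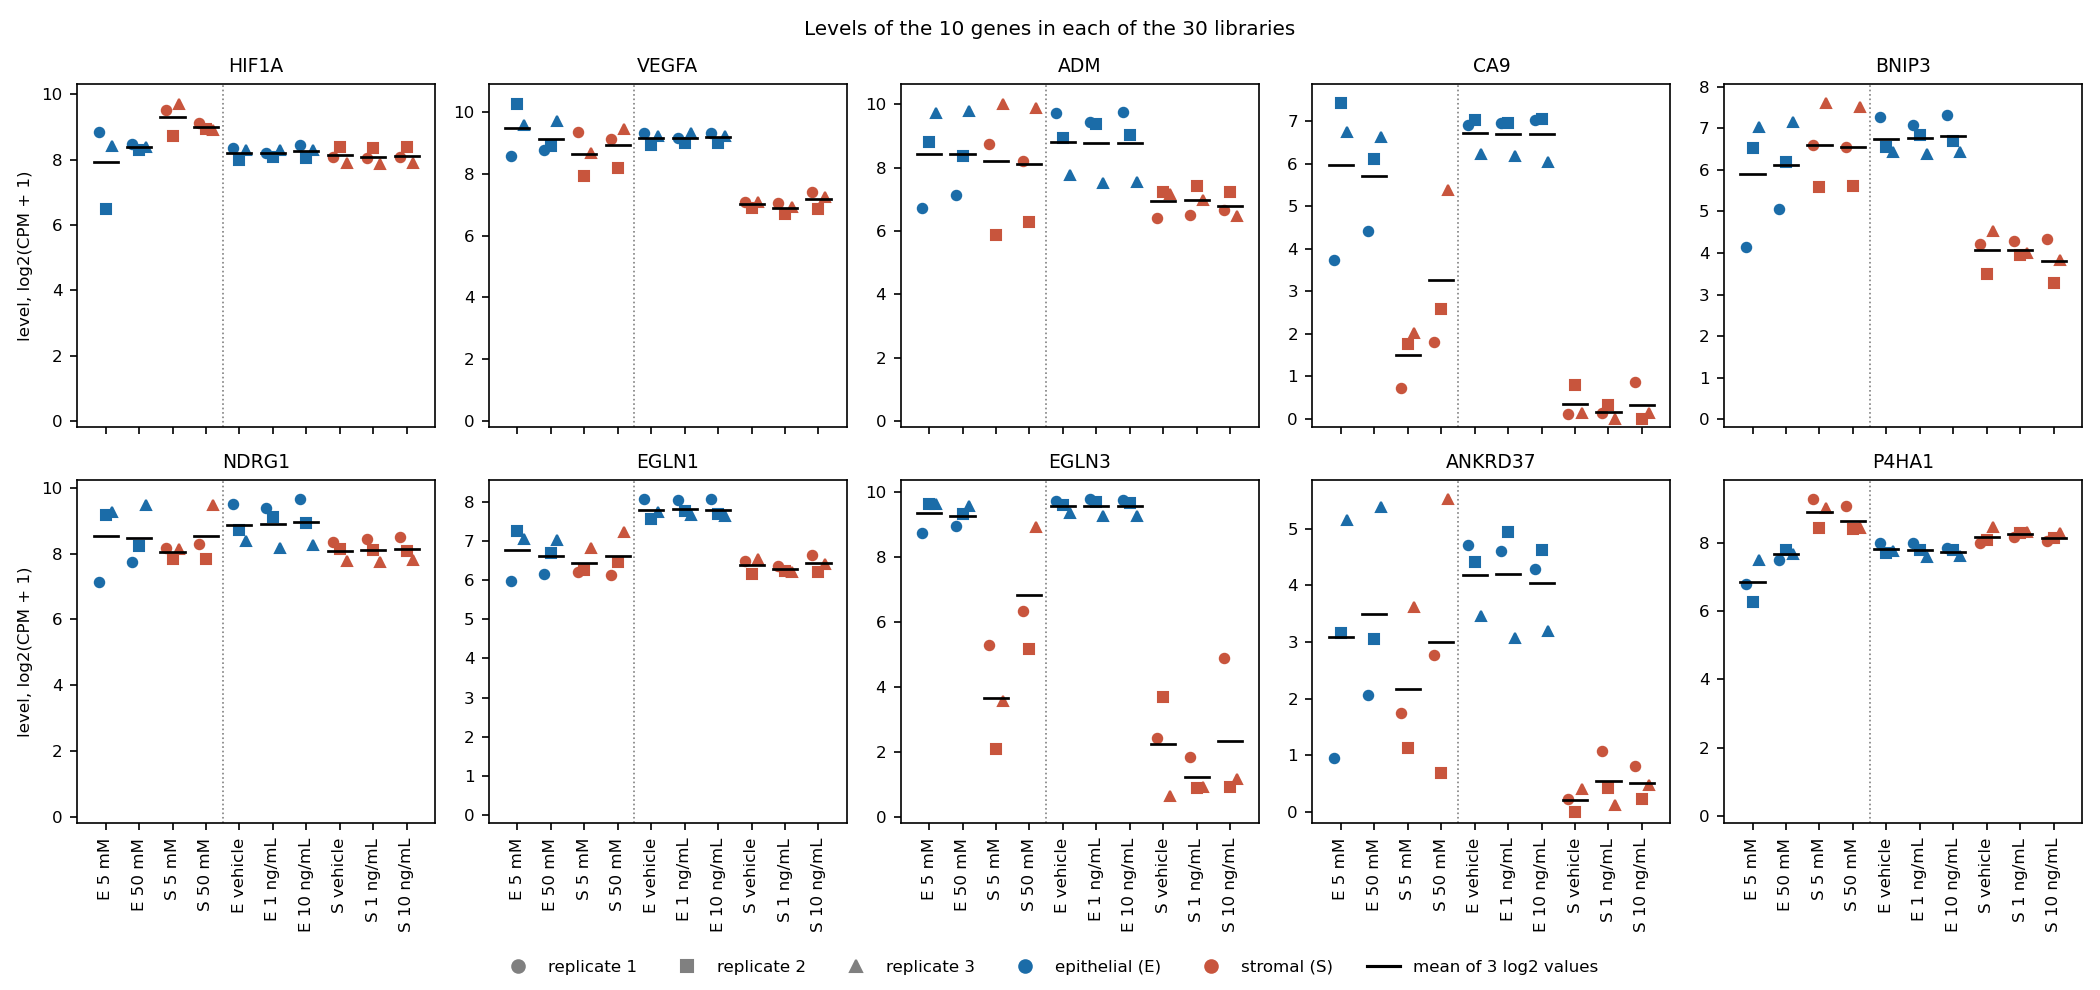
Level of each of the 10 genes as log2(CPM + 1) in all 30 libraries, by group on the horizontal axis (E epithelial, S stromal), with a point for each replicate and a bar for the mean of the 3 log2 values. CA9 and EGLN3 lie far lower in stromal than in epithelial libraries of the insulin experiment, and stromal 50 mM replicate 3 stands above the other stromal libraries for both.

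HIF1A had the smallest difference between the cell types of the 10 genes in the insulin experiment. At vehicle it was at 327, 253 and 312 CPM in epithelial cells and at 272, 335 and 240 CPM in stromal cells. These groups overlapped, and the log2 fold change of 0.00 (SE 0.198, epithelial over stromal) was not called (adjusted p = 0.995). In the glucose experiment HIF1A was lower in epithelial cells. At 5 mM it was at 465, 89.3 and 340 CPM in epithelial and at 728, 427 and 843 CPM in stromal cells, and the fold change was -1.62 (SE 0.413, adjusted p = 0.0402), with the stromal library higher in 3 of 3 pairs. The lowest epithelial value came from replicate 2, the library that stood apart, and the ranges of the groups overlapped. HIF1A was no longer called without replicate 2 (-1.23, adjusted p = 0.0593), without replicate 3 (-1.64, adjusted p = 0.137) or without the replicate block (-1.41, adjusted p = 0.122). At 50 mM, where they did not overlap, HIF1A was at 353, 313 and 336 CPM in epithelial and at 562, 486 and 481 CPM in stromal cells, a log2 fold change of -0.76 (adjusted p = 0.0424). By group mean the glucose experiment ran from stromal 5 mM (666 ± 215 CPM) through stromal 50 mM (510 ± 45.2) and epithelial 50 mM (334 ± 20.3) to epithelial 5 mM (298 ± 191). Only the stromal 50 mM and epithelial 50 mM groups were neighbours without overlap, and in the insulin experiment all neighbouring groups overlapped, with means of 274 to 310 CPM.

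EGLN3, a prolyl hydroxylase that HIF itself is known to induce, had one of the widest contrasts between the cell types. In epithelial cells it was at 858, 775 and 658 CPM with vehicle and at 433, 795 and 805 CPM with 5 mM glucose. In stromal cells it was at 4.37, 11.9 and 0.542 CPM with vehicle and at 38.6, 3.27 and 11.0 CPM with 5 mM glucose. All epithelial libraries lay above all stromal ones of the same treatment in these comparisons. The log2 fold changes were 7.49 at vehicle (SE 0.855, adjusted p = 0.00283) and 5.68 at 5 mM glucose (SE 1.04, adjusted p = 0.0153). At 50 mM glucose stromal EGLN3 was at 81.0, 35.3 and 490 CPM, against 495, 639 and 763 CPM in epithelial cells, and the log2 fold change of 2.32 was not called (adjusted p = 0.0785). The value of 490 CPM came from the stromal library with the most epithelial marker RNA.

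EGLN1, the main hydroxylase that marks HIF1A at normal oxygen, differed less. At vehicle it was at 265, 187 and 211 CPM in epithelial cells and at 87.8, 70.6 and 91.7 CPM in stromal cells, without overlap. Its log2 fold change was 1.32 (SE 0.155, adjusted p = 0.00302), a fold of 2.50. In 5 mM glucose EGLN1 was at 62.1, 151 and 130 CPM in epithelial and 72.5, 74.9 and 113 CPM in stromal cells, and the fold change of 0.11 was not called (SE 0.382, adjusted p = 0.873). Epithelial EGLN1 had a mean of 221 ± 40.2 CPM at vehicle and of 114 ± 46.4 CPM at 5 mM glucose, both in 5 mM glucose medium but in separate experiments that were not tested against each other.

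VEGFA, the ligand best known for driving growth and leakiness of blood vessels, was 4.20-fold higher in epithelial than in stromal cells at vehicle. It was at 638, 485 and 600 CPM in epithelial cells and at 134, 118 and 134 CPM in stromal cells, with a log2 fold change of 2.07 (SE 0.135, adjusted p = 0.00107). The contrast was 2.17 at 1 ng/mL and 1.91 at 10 ng/mL insulin (adjusted p = 0.000103 and 0.00131). In the order of the insulin groups the only gap lay between the 3 epithelial means (570 to 580 CPM) and the 3 stromal means (118 to 144 CPM). In the glucose experiment VEGFA was at 375, 1229 and 768 CPM in epithelial and at 645, 240 and 403 CPM in stromal cells at 5 mM. These ranges overlapped and the log2 fold change of 0.62 was not called (SE 0.689, adjusted p = 0.592). In replicate 1 the epithelial library was the lower one, and in replicates 2 and 3 the stromal one. Without replicate 2 the fold change was -0.18. At 50 mM the values were 431, 471 and 822 CPM in epithelial and 550, 291 and 698 CPM in stromal cells, and all 4 glucose groups overlapped with their neighbours.

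ADM, which encodes the vasodilator peptide adrenomedullin, varied widely between replicates. At vehicle it was at 848, 488 and 219 CPM in epithelial cells and at 84.4, 149 and 143 CPM in stromal cells. The groups did not overlap, but the log2 fold change of 1.79 was not called (SE 0.616, adjusted p = 0.0623). Without replicate 3 (2.51, adjusted p = 0.0266) or without the replicate block (1.98, adjusted p = 0.0174) it was called. At 1 and 10 ng/mL insulin it was called, with 1.72 and 1.87 (adjusted p = 0.0259 and 0.0256). In 5 mM glucose it was at 105, 448 and 840 CPM in epithelial and at 432, 58.0 and 1037 CPM in stromal cells, and the fold change of -0.16 (SE 1.08, adjusted p = 0.938) was far inside that spread.

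CA9, a carbonic anhydrase on the cell surface that helps control pH, was at or near 0 counts in stromal libraries of the insulin experiment. It was at 120, 128 and 73.8 CPM in epithelial cells with vehicle, while the stromal libraries held 1, 8 and 1 counts. The stromal counts were 1, 3 and 0 at 1 ng/mL and 11, 0 and 1 at 10 ng/mL insulin. As ratios of pooled counts, each scaled by the pooled library total, these gave 341 (exact interval 185 to 711), 931 (363 to 3417) and 314 (179 to 608) at vehicle, 1 and 10 ng/mL, with 95% intervals for counting error only. Of the pooled stromal counts, 8 at vehicle came from replicate 2 and 11 at 10 ng/mL came from replicate 1. These are the stromal insulin libraries with the most epithelial marker RNA (408 and 360 CPM). The part of epithelial RNA in these counts was not tested. The replicated test gave a log2 fold change of 8.36 at vehicle (SE 0.423, adjusted p = 0.000904). In 5 mM glucose CA9 was at 12.4, 169 and 106 CPM in epithelial cells and at 0.652, 2.39 and 3.05 CPM in stromal cells, a log2 fold change of 5.02 (SE 0.529, adjusted p = 0.00543). At 50 mM the stromal values were 2.50, 4.98 and 40.5 CPM against 20.5, 67.5 and 98.2 CPM, and the fold change was 2.50 (adjusted p = 0.0314).

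BNIP3, which encodes a mitochondrial protein of mitophagy and cell death, was at 153, 93.5 and 85.7 CPM in epithelial and at 17.6, 10.3 and 22.1 CPM in stromal cells at vehicle. All epithelial libraries were the higher ones, with a log2 fold change of 2.67 (SE 0.330, adjusted p = 0.00340). At 5 mM glucose it was at 16.7, 90.9 and 130 CPM in epithelial and at 96.5, 47.0 and 193 CPM in stromal cells, which overlapped (log2 fold change -0.92, SE 0.737, adjusted p = 0.452). NDRG1, a stress-responsive gene of the N-myc downstream regulated family, was at 733, 419 and 333 CPM against 326, 282 and 218 CPM at vehicle. Its log2 fold change of 0.70 was the smallest of those called there (SE 0.203, adjusted p = 0.0386), and it was not called without replicate 1 (0.43, adjusted p = 0.0822), without replicate 3 (0.86, adjusted p = 0.0582) or without the replicate block (0.79, adjusted p = 0.0812). In 5 mM glucose NDRG1 was at 141, 576 and 619 CPM in epithelial and 286, 227 and 282 CPM in stromal cells, and 0.31 was not called (SE 0.583, adjusted p = 0.764).

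ANKRD37, a HIF target that encodes a small ankyrin repeat protein, was at 25.2, 20.4 and 9.94 CPM in epithelial cells at vehicle, where stromal libraries held 2, 0 and 3 counts. The ratio of pooled counts, scaled by the pooled library totals, was 120 (exact 95% interval 51.0 to 370, counting error only), and the tested log2 fold change was 6.72 (SE 0.617, adjusted p = 0.00180). In glucose, 5 mM, it was at 0.931, 7.93 and 34.5 CPM in epithelial and 2.35, 1.19 and 11.3 CPM in stromal cells, so that replicates of one group differed more than the groups did (log2 fold change 0.91, SE 0.857, adjusted p = 0.519). Without replicate 1 ANKRD37 was called there (1.93, adjusted p = 0.0344). P4HA1, a catalytic subunit of the enzyme that hydroxylates proline in collagen, was the member with stromal levels above epithelial ones in every comparison of cell types. At 5 mM glucose it was at 109, 76.1 and 180 CPM in epithelial and at 615, 342 and 513 CPM in stromal cells, a log2 fold change of -2.27 (SE 0.367, adjusted p = 0.0108). At 50 mM it was -1.12 (adjusted p = 0.0491), at vehicle -0.43 (SE 0.205, adjusted p = 0.134), at 1 ng/mL -0.58 (adjusted p = 0.0216) and at 10 ng/mL -0.52 (adjusted p = 0.0568). The epithelial library was the lower one in 3 of 3 pairs each time.

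Counted over the list, 7 of 10 members were called higher in epithelial cells at vehicle and 0 higher in stromal cells, where 28.2% and 27.8% of protein-coding genes were called in these directions. At 1 ng/mL the counts were 8 and 1 (background 29.9% and 29.5%) and at 10 ng/mL 8 and 0 (27.3% and 27.6%). The members' median log2 fold change at vehicle was 1.93, where that of all protein-coding genes was 0.00. In 5 mM glucose 2 members were called in each direction, beside 10.8% of genes on the epithelial and 10.7% on the stromal side. At 50 mM glucose 1 member was called on the epithelial and 2 on the stromal side, beside 6.57% and 11.0%. The medians over the members were 0.21 at 5 mM and -0.05 at 50 mM. Ranges did not overlap for 3, 3, 9, 8 and 8 of the 10 members at 5 mM, 50 mM, vehicle, 1 and 10 ng/mL, where they did not for 45.0%, 35.5%, 66.0%, 68.0% and 66.3% of protein-coding genes tested. In the insulin experiment VEGFA, CA9, BNIP3, EGLN1, EGLN3 and ANKRD37 were called in all 3 comparisons under all 8 alternatives to the main fit, which include each left-out replicate, and at 5 mM glucose this held for CA9, EGLN3 and P4HA1. The 50 mM calls needed both the pairing of libraries by replicate number and replicate 1: without the block 0 members were called, and without replicate 1, epithelial and stromal, 0 members and 0 protein-coding genes were called. Whether the contrast between cell types differed between the experiments was not tested, since their tables were fitted separately.

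**Figure D2:**
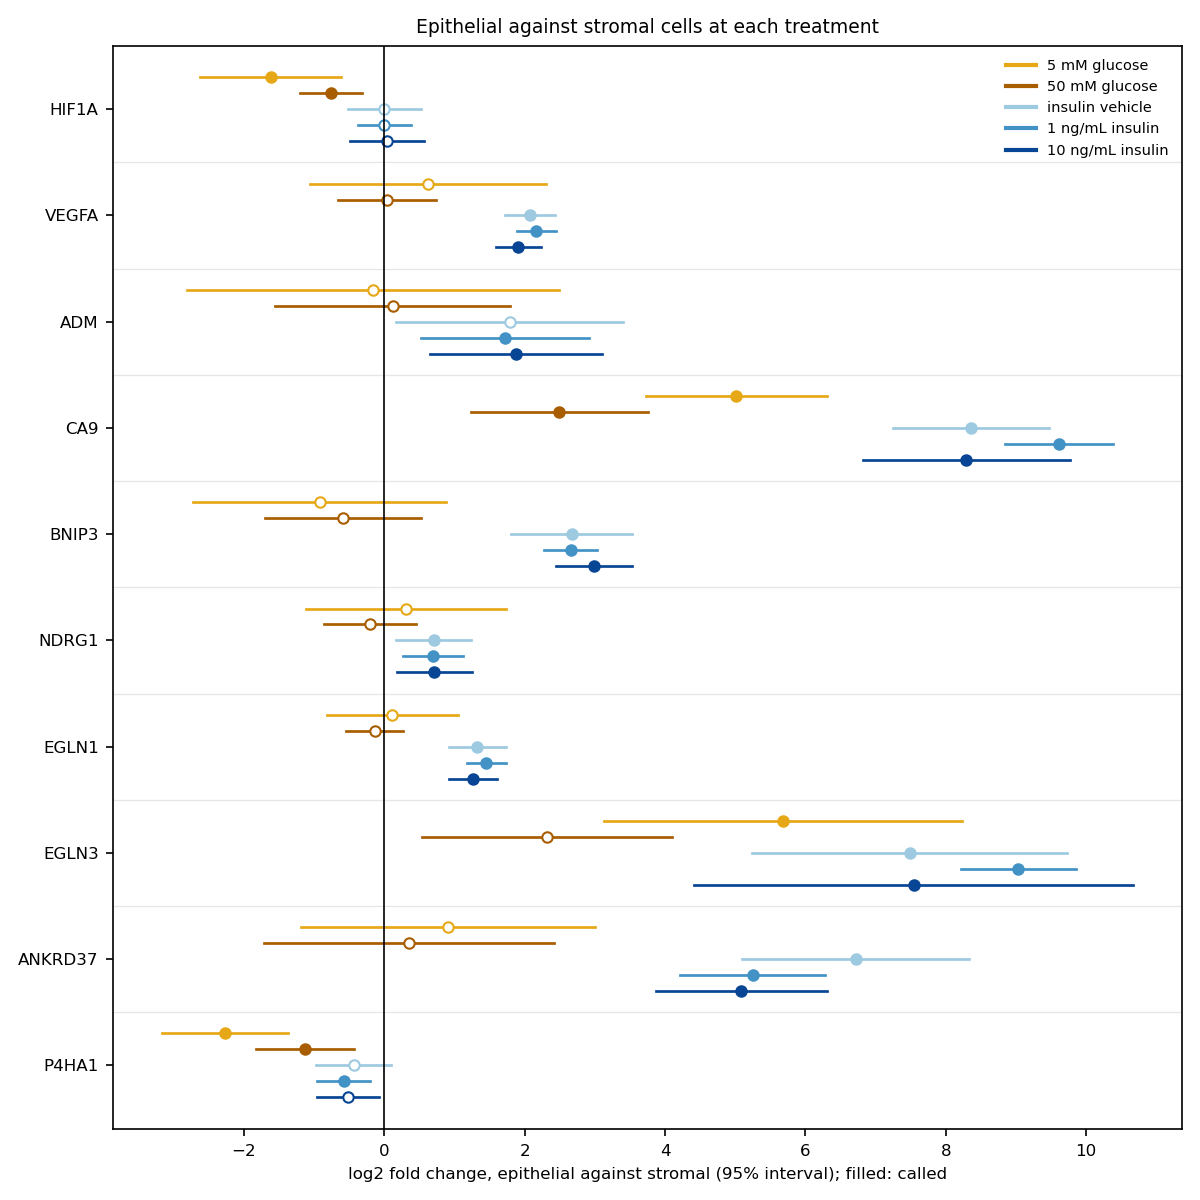
Log2 fold change of each gene between epithelial and stromal cells with its 95% interval, at 5 and 50 mM glucose and at insulin vehicle, 1 and 10 ng/mL. Positive values are higher in epithelial cells, and filled points were called. In the insulin experiment 8 members lie above 0, HIF1A at 0 and P4HA1 below it.

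Receptors and regulators of the pathway were read from 5 lists of 75 further genes. Among 5 tested VEGF ligands and receptors, 4 were called higher in stromal cells at vehicle and 0 in epithelial cells, where 27.8% and 28.2% of protein-coding genes were called in these directions. The fifth, NRP2, a co-receptor, was not called (-1.26, adjusted p = 0.120). KDR, the main signalling receptor of VEGFA, and RAMP3, an adrenomedullin receptor partner, could not be matched by name and were not analysed here. FLT1, a VEGF receptor, was at 21.7 ± 2.14 CPM in epithelial and 324 ± 111 CPM in stromal cells (log2 fold change -3.92, adjusted p = 0.00105). NRP1, a co-receptor, was at 8.96 ± 5.02 and 340 ± 57.3 CPM (-5.43, adjusted p = 0.00176), and the ligands VEGFC (-2.72) and VEGFB (-0.46) were the others. All 3 adrenomedullin receptor genes tested were called higher in stromal cells. CALCRL, the receptor itself, was at 1.37 ± 0.760 and 30.8 ± 7.89 CPM (-4.58, adjusted p = 0.000914), RAMP2, its partner, differed by -4.39 and ACKR3, a scavenging receptor, by -4.04. These 3 genes and FLT1, NRP1 and VEGFC were also called higher in stromal cells at 5 mM glucose, with log2 fold changes of -5.36 for CALCRL, -5.18 for RAMP2, -3.74 for ACKR3, -3.88 for FLT1, -4.52 for NRP1 and -1.95 for VEGFC.

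HIF regulators were called in both directions. EPAS1, which encodes the alpha subunit of HIF-2, was at 18.8 ± 18.3 CPM in epithelial and 348 ± 28.2 CPM in stromal cells at vehicle (log2 fold change -4.71, adjusted p = 0.00269). At 5 mM glucose it differed by -4.21 (adjusted p = 0.00543). CITED2, which competes with HIF for its coactivator, was also higher in stromal cells at vehicle (-1.34), as was EGLN2 (-0.47), a further prolyl hydroxylase. SIAH2, a ligase that removes prolyl hydroxylases (1.54), and ARNT2, a partner of HIF alpha subunits (1.37), were higher in epithelial cells. That left 4 of 9 tested regulators not called at vehicle.

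Most called glycolysis genes were on the epithelial side at vehicle, with 15 of 21 higher in epithelial cells and 1, ENO2 (-1.81), higher in stromal cells, beside the background of 28.2% and 27.8%. SLC2A1, the basal glucose transporter, was at 747 ± 41.8 CPM in epithelial and 34.5 ± 13.4 CPM in stromal cells (log2 fold change 4.42, adjusted p = 0.00139). SLC16A3, which exports lactate, differed by 2.95, HK2, which traps glucose, by 2.55, PDK1, which holds pyruvate back from the mitochondrion, by 2.50 and LDHA, which makes lactate, by 2.02. Of 28 other HIF targets 15 were called higher in epithelial cells, among them CXCR4 (5.90), ZNF395 (3.76), FAM162A (2.95), MXI1 (2.84), GYS1 (2.64), DDIT4 (2.13) and BNIP3L (1.67). Those called higher in stromal cells included TMEM45A (-2.78), INSIG2 (-0.64), P4HA3 (-6.92) and the collagen-modifying LOX (-2.80), LOXL2 (-2.66) and PLOD2 (-2.09). P4HA3, a collagen hydroxylase subunit, was at 0.0313 CPM in epithelial cells, under the limit that a count of 0 allows, and its fitted change is no bound. Over the 75 genes, 32 of the 66 tested were called on the epithelial and 18 on the stromal side at vehicle, the latter a share near the background of 27.8%. In 5 mM glucose 1 (CXCR4, 4.79) and 15 of 69 were, beside 10.8% and 10.7% of protein-coding genes tested, and in that comparison no glycolysis gene was called higher in epithelial cells. The glycolysis genes called there were SLC2A3, a further glucose transporter (-2.95, adjusted p = 0.00633), and ENO2 (-1.71, adjusted p = 0.0363), both higher in stromal cells. At vehicle SLC2A3 was not called (-0.40, adjusted p = 0.606). The median over the tested pathway genes was 0.41 at vehicle and -0.38 at 5 mM glucose, beside 0.00 for all protein-coding genes in each.

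Glucose was compared at 50 against 5 mM within each cell type. In epithelial cells 0 of 10 members were called (adjusted p 0.804 to 0.994), as were 0% of 13055 protein-coding genes. VEGFA had a log2 fold change of -0.34 (SE 0.392, 95% interval -1.32 to 0.63), and HIF1A one of 0.45 (SE 0.450, interval -0.67 to 1.56). Intervals this wide hold changes of over 1 log2 unit in one direction for each gene. P4HA1 was the only member whose unadjusted p was under 0.05 and whose ranges did not overlap, with 109, 76.1 and 180 CPM at 5 mM and 180, 220 and 202 CPM at 50 mM. Rounded to 3 digits the highest 5 mM value and the lowest 50 mM value are alike. P4HA1 was higher at 50 mM in 3 of 3 pairs without passing the test (log2 fold change 0.81, SE 0.304, unadjusted p-value of 0.0393, adjusted p = 0.804).

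Stromal cells gave the 2 largest glucose differences among the members, and neither passed the test. EGLN3 was at 38.6, 3.27 and 11.0 CPM at 5 mM and at 81.0, 35.3 and 490 CPM at 50 mM (log2 fold change 3.25, SE 0.990, unadjusted p-value of 0.0278, adjusted p = 0.696). CA9 was at 0.652, 2.39 and 3.05 CPM and at 2.50, 4.98 and 40.5 CPM (2.24, SE 0.611, unadjusted p-value of 0.0195, adjusted p = 0.696). Both were higher at 50 mM in 3 of 3 pairs. The same stromal libraries held 729, 349 and 100.1 CPM of the 22 epithelial markers at 5 mM and 1630, 1088 and 6426 CPM at 50 mM, also higher in 3 of 3 pairs. All 22 of these markers had a positive log2 fold change (median 4.65), and 0 were called. In 50 mM replicate 3 the markers stood at a median of 59.7% of the epithelial level, EGLN3 at 74.8% and CA9 at 51.3% of theirs. Without replicate 3 the fold changes were 2.01 for EGLN3 and 1.33 for CA9. The part of epithelial RNA in these stromal values was not tested. VEGFA differed by 0.21 (SE 0.204, interval -0.34 to 0.77) and HIF1A by -0.40 (SE 0.239, interval -1.05 to 0.25) between the doses in stromal cells, and the 10 members had adjusted p from 0.696 to 0.775. DESeq2's Wald test called 1 member, CA9, beside 176 protein-coding genes, where edgeR called 0 of 13035 and 2 members had an unadjusted p under 0.05.

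**Figure D3:**
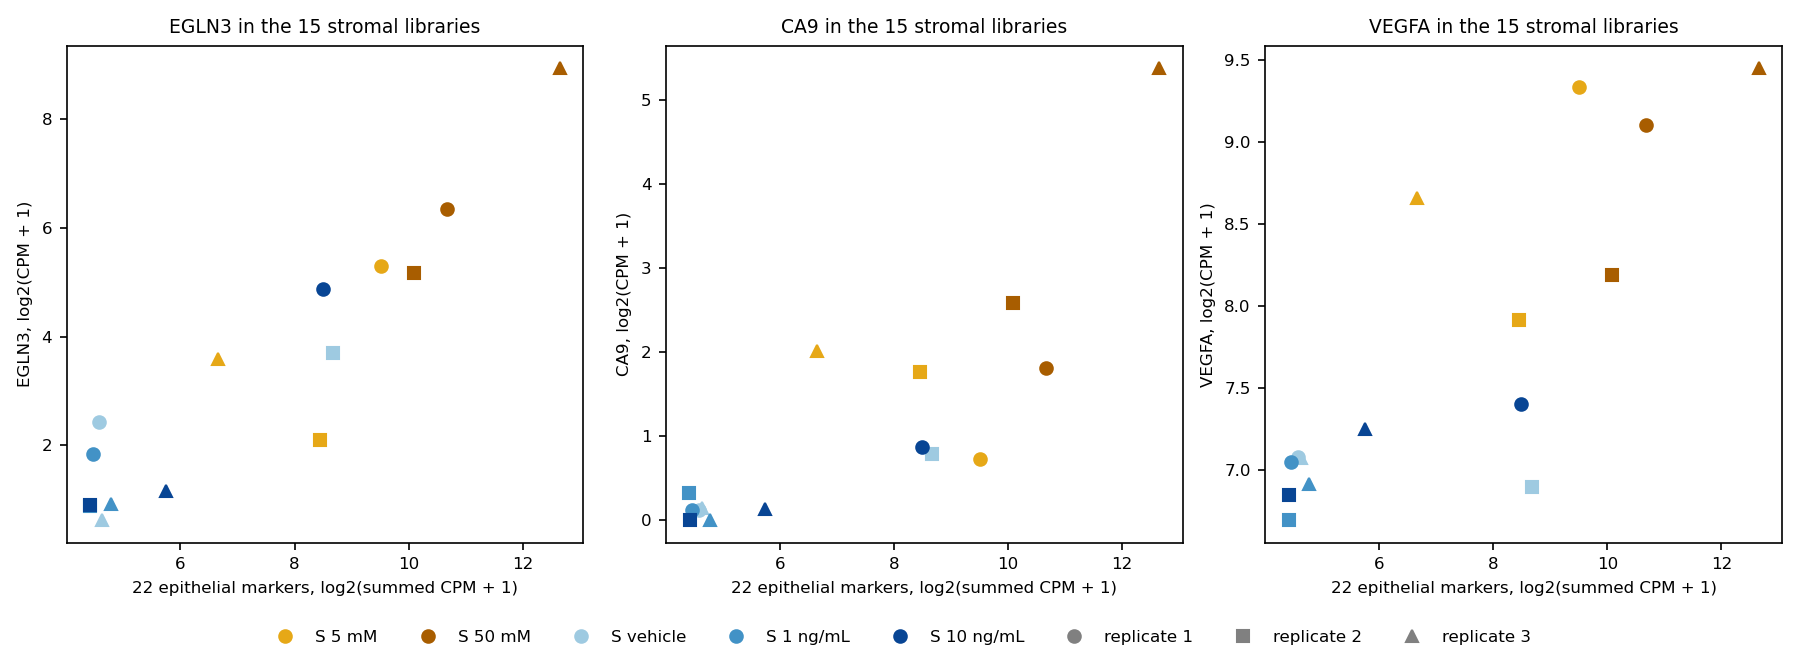
EGLN3, CA9 and VEGFA in the 15 stromal libraries against the summed level of 22 epithelial markers in the same library, both as log2(CPM + 1), with color for the group and shape for the replicate. The library with the most marker RNA, 50 mM glucose replicate 3 (6426 CPM), also has the most EGLN3 (490 CPM) and CA9 (40.5 CPM), and VEGFA is at 102 to 168 CPM in insulin and at 240 to 698 CPM in glucose libraries.

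No gene of the pathway lists was called for glucose either. The paper, from its own DESeq2 fit, reports protein-coding genes altered by high glucose in both cell types, more of them in stromal cells. It lists response to hypoxia among the over-represented processes of the stromal genes, without naming the genes of that term. Its cut-off does not say that the p was adjusted, and its exact glucose fit was not repeated. In stromal cells 0 of 69 tested pathway genes were called, and 2 had an unadjusted p under 0.05. These were FAM162A, a mitochondrial HIF target (0.89, unadjusted p-value of 0.0199), and VLDLR, a lipoprotein receptor (-0.41, unadjusted p-value of 0.0364), and ANGPTL4 (0.40) followed in that list. In the other lists the 3 genes with the smallest p were SLC2A1 (0.91), LDHA (0.28) and SLC2A3 (-0.45) for glycolysis, EPAS1 (-0.61), EGLN2 (-0.18) and SIAH1 (0.35) for regulators, ACKR3 (-0.46), CALCRL (-0.55) and RAMP2 (-0.51) for adrenomedullin receptors, and NRP1 (-0.53), FLT1 (-0.37) and VEGFB (-0.30) for VEGF. In epithelial cells 0 of 65 were called and 4 had an unadjusted p under 0.05. The medians over the lists' genes were -0.02 in stromal and 0.10 in epithelial cells, beside -0.03 and 0.01 for all protein-coding genes.

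In epithelial cells the insulin doses gave small differences in the members. VEGFA was at 638, 485 and 600 CPM with vehicle, at 569, 513 and 628 CPM with 1 ng/mL and at 640, 508 and 592 CPM with 10 ng/mL. HIF1A was at 327, 253 and 312 CPM, at 296, 271 and 316 CPM and at 346, 267 and 316 CPM. The doses overlapped for both genes. VEGFA's log2 fold change was -0.01 at 1 ng/mL (95% interval -0.12 to 0.10) and 0.01 at 10 ng/mL (interval -0.07 to 0.09) against vehicle, and 0.02 between the doses. For HIF1A the changes were -0.02 (interval -0.12 to 0.09), 0.05 (interval -0.03 to 0.13) and 0.07. Comparisons of the 2 doses with vehicle share the vehicle libraries. Over the 10 members the changes ran from -0.04 to 0.08 at 1 ng/mL, from -0.17 to 0.07 at 10 ng/mL and from -0.25 to 0.07 between the doses. ANKRD37 gave the lowest of these, at 18.6, 23.6 and 8.19 CPM with 10 ng/mL and 23.4, 29.8 and 7.46 CPM with 1 ng/mL (-0.25, SE 0.104, unadjusted p-value of 0.0301, adjusted p = 0.983). It was lower in 2 of 3 pairs. The counts of called members were 0, 0 and 0, beside 0%, 0.113% and 0% of protein-coding genes, and DESeq2 also called 0 members in each.

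In stromal cells 8 of the 10 members passed the filter on low counts, CA9 and ANKRD37 being too low to test, and 0 were called in each comparison (background 0%, 0% and 0.0244%). DESeq2, run here on the same libraries, called 0 members as well. The paper lists VEGFA among the transcripts altered in stromal cells between 10 and 1 ng/mL, from its own paired DESeq2 fit. Its stated cut-off is a p under 0.05 with a log2 fold change beyond 0.1, without saying that the p was adjusted. The DESeq2 run here also held the replicate block, but its calls needed an adjusted p under 0.05, so the thresholds may differ. The paper's exact fit was not repeated. Members with an unadjusted p under 0.05 by edgeR numbered 1 at 1 ng/mL, 1 at 10 ng/mL and 4 between the doses. VEGFA was at 134, 118 and 134 CPM with vehicle, 131, 102 and 120 CPM with 1 ng/mL and 168, 114 and 151 CPM with 10 ng/mL. Its log2 fold change was -0.10 at 1 ng/mL (SE 0.0584, adjusted p = 0.918) and 0.16 at 10 ng/mL (SE 0.0662, unadjusted p-value of 0.0415, adjusted p = 0.999). Between 10 and 1 ng/mL VEGFA was higher in 3 of 3 pairs, by 0.26 (SE 0.0567, 95% interval 0.14 to 0.39, unadjusted p-value of 0.000728), but the adjusted p was 0.340. Leaving out 1 replicate number at a time gave 0.22 to 0.31, and without replicate 1, whose 10 ng/mL library stood apart, VEGFA was called (adjusted p = 0.0397). In the pair of replicate 2 the epithelial markers summed to 20.3 and 20.4 CPM at 1 and 10 ng/mL, with VEGFA at 102 and 114 CPM. They summed to 21.0 and 360 CPM in replicate 1, with VEGFA at 131 and 168 CPM, and to 26.4 and 52.6 CPM in replicate 3. The part of epithelial RNA in this VEGFA difference was not tested. HIF1A changed by -0.02, 0.00 and 0.02 in the 3 comparisons.

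EGLN3 had the largest insulin differences in stromal cells, and these lay in a few libraries. It was at 4.37, 11.9 and 0.542 CPM with vehicle, at 2.59, 0.848 and 0.888 CPM with 1 ng/mL and at 28.5, 0.877 and 1.25 CPM with 10 ng/mL. The 2 highest values, 11.9 and 28.5 CPM, came from the 2 stromal insulin libraries with the most epithelial marker RNA (408 and 360 CPM). EGLN3 differed by -1.76 at 1 ng/mL against vehicle (SE 0.510, unadjusted p-value of 0.00452, adjusted p = 0.766) and by 2.36 at 10 against 1 ng/mL (SE 0.480, unadjusted p-value of 0.000474, adjusted p = 0.272). Without replicate 1 the latter was 0.29 (adjusted p = 0.886), and without replicate 2 the former was -0.38. Without replicate 2 or 3 EGLN3 was called at 10 against 1 ng/mL, and without replicate 3 at 1 ng/mL against vehicle. In the comparison of 10 with 1 ng/mL, 5 of 22 epithelial markers were tested, 1 was called higher and their median was 3.04. The part of epithelial RNA in these EGLN3 values was not tested. ADM (-0.20, unadjusted p-value of 0.0469) was lower in 2 of 3 pairs at 10 than at 1 ng/mL and P4HA1 (-0.13, unadjusted p-value of 0.0406) in 3 of 3. Without replicate 1 ADM was called as well.

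Among pathway genes of stromal cells, 0 of 68 were called between 10 and 1 ng/mL insulin and 5 had an unadjusted p under 0.05. The 3 with the smallest p in each list were CXCR4, a chemokine receptor (1.82, unadjusted p-value of 0.0101), FAM162A (0.33) and KDM3A (-0.12) of the HIF targets, PFKFB3, an activator of glycolysis (-0.26, unadjusted p-value of 0.00982), SLC2A3 (-0.24) and HK2 (0.20) of glycolysis, ACKR3 (-0.17), CALCRL (-0.10) and RAMP2 (0.03) of the adrenomedullin receptors, FLT1 (-0.10), NRP1 (-0.09) and NRP2 (0.18) of the VEGF list, and CITED2 (-0.09), ARNT (-0.07) and HIF1AN (-0.06) of the regulators. In the other 5 insulin comparisons 0 of 65 to 67 pathway genes were called, with 3 to 6 at an unadjusted p under 0.05.

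**Figure D4:**
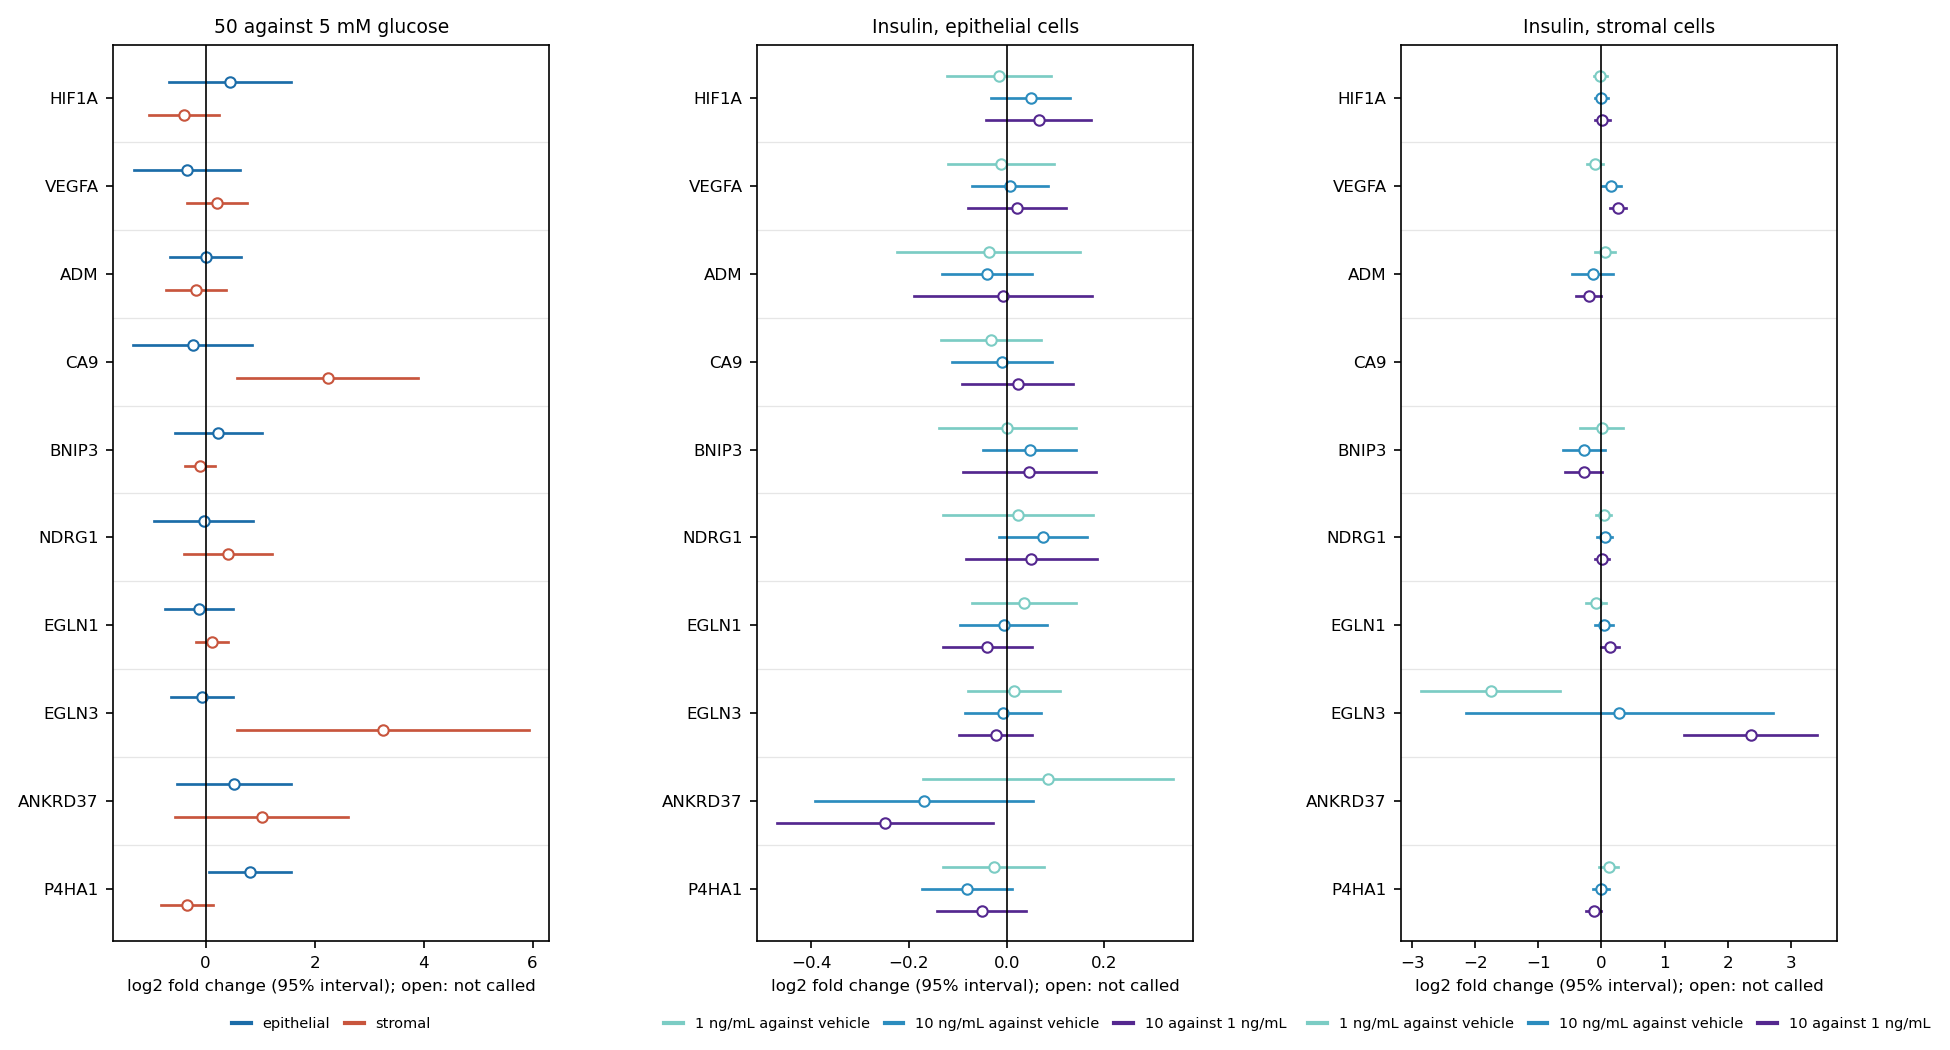
Log2 fold changes of the members with 95% intervals for glucose in both cell types (left) and for insulin in epithelial (middle) and stromal cells (right), each panel with its own horizontal scale. Open points were not called, which holds for all of them. Epithelial insulin changes lie between -0.25 and 0.08, and the widest intervals are those of stromal EGLN3 and CA9.

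The difference between the cell types in their response was tested with an interaction term, given as the epithelial minus the stromal log2 fold change. For glucose 0 of 10 members were called by edgeR (background 0% of 13851 genes), 3 had an unadjusted p under 0.05, and DESeq2 called 2, CA9 and EGLN3. The values were -3.33 for EGLN3 (unadjusted p-value of 0.0104), -2.49 for CA9 (0.0160) and 1.14 for P4HA1 (SE 0.399, unadjusted p-value of 0.0225, adjusted p = 0.640). P4HA1 was higher at 50 mM in 3 of 3 epithelial pairs and lower in 3 of 3 stromal ones, and it passed the test in none of these comparisons. EGLN3 was called for glucose without replicate 1 (-4.60, adjusted p = 0.00684).

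For insulin, 0 members were called at 1 ng/mL (background 0.659%, smallest adjusted p = 0.0629 for EGLN3, 1.94) and 0 at 10 ng/mL (0%), and DESeq2 called 0 in each. Between 10 and 1 ng/mL EGLN3 was the 1 member called, at -2.64 (SE 0.357, adjusted p = 0.00151), beside 0.728% of protein-coding genes. Of the 22 epithelial markers 18 were called in the same direction in this comparison, with a median of -3.85. Without replicate 1 EGLN3 was at -0.34 and not called (adjusted p = 0.937), and VEGFA was called instead at -0.33 (adjusted p = 0.0323, and -0.25 with an adjusted p = 0.392 in all libraries). Without the block or with DESeq2 EGLN3 was not called either. EGLN1 had -0.18 (unadjusted p-value of 0.0385).

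Replicate numbers separated the members far more than the treatments did. Within a cell type and experiment, the median share of a member's variance of log2(CPM + 1) that lay between replicate numbers was 88.5% in epithelial glucose, 92.9% in epithelial insulin, 77.8% in stromal glucose and 59.4% in stromal insulin libraries. The medians between treatments were 1.40%, 0.489%, 10.4% and 10.8%. For all protein-coding genes the medians between replicates were 59.2%, 73.4%, 65.8% and 61.7%, and those between treatments 11.2%, 5.80%, 8.87% and 8.74%. In stromal insulin libraries the members' medians were thus near those of all genes. More lay between replicates than between treatments for 9, 10, 9 and 10 of the 10 members, the exceptions being P4HA1 in epithelial glucose (19.3% and 54.4%) and EGLN3 in stromal glucose libraries (28.7% and 54.4%).

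ADM shows what this means in the libraries. In epithelial glucose libraries it was at 105, 448 and 840 CPM at 5 mM and at 138, 326 and 881 CPM at 50 mM, and in stromal ones at 432, 58.0 and 1037 CPM and at 294, 76.6 and 931 CPM. The replicates kept their order at both doses, and 97.8% and 98.4% of its variance lay between them. BNIP3 in stromal glucose libraries was at 96.5, 47.0 and 193 CPM and at 92.3, 47.8 and 183 CPM, with 99.9% between replicates. The order of the 3 replicates was the same at every treatment for 6 members in epithelial glucose, 6 in stromal glucose, 5 in epithelial insulin and 4 in stromal insulin libraries. How many of all genes kept their order, or had the larger share between replicates, was not counted. What the replicates of a number shared beyond it was not analysed here.

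**Figure D5:**
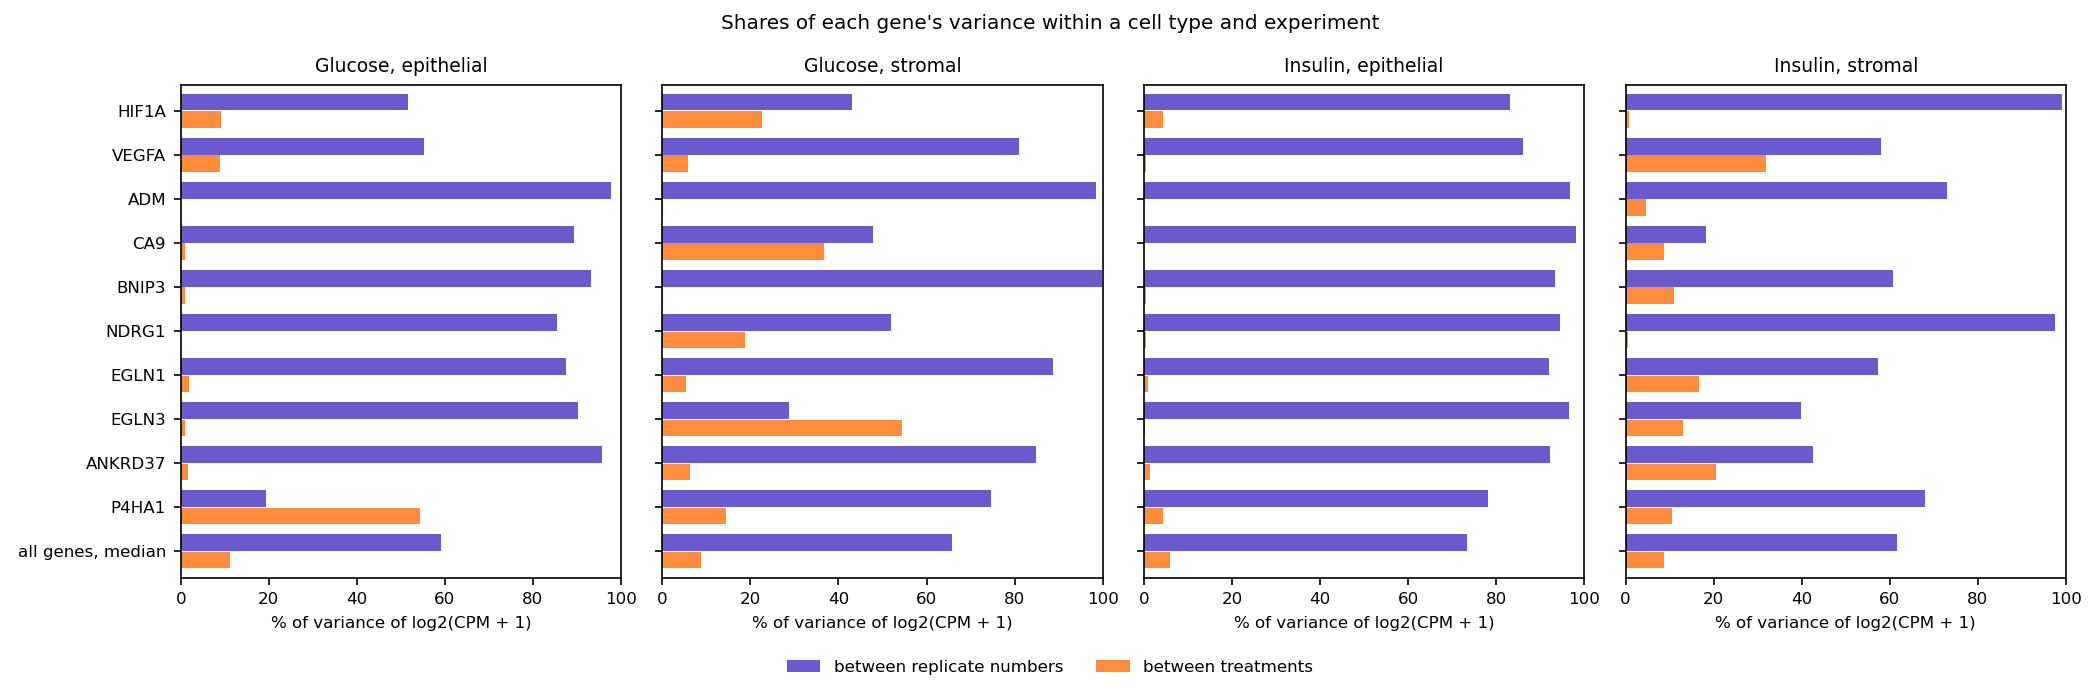
Share of each gene's variance of log2(CPM + 1) that lies between replicate numbers and between treatments, in percent, for epithelial and stromal libraries of both experiments, with the median over all protein-coding genes at the bottom. The share between replicates is the longer bar everywhere but for P4HA1 in epithelial glucose and EGLN3 in stromal glucose libraries.

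The genes whose pattern was most like that of VEGFA were EVL, FOXO3, PPP1R15A, TMEM268 and AMBRA1, with Pearson correlations of 0.929, 0.920, 0.907, 0.895 and 0.884 among 12976 genes. These were taken over 30 libraries after subtracting the mean of each experiment and cell type, so the libraries share depth and replicate numbers and the values are a description. EVL had a correlation of 0.0433 within epithelial insulin libraries and PPP1R15A one of -0.162 within stromal insulin libraries, so the likeness did not hold in every group of libraries. Of the other members BNIP3 was closest at 0.692 (rank 422), followed by NDRG1 (0.655), EGLN1 (0.651), ANKRD37 (0.570), ADM (0.568), EGLN3 (0.556) and CA9 (0.514). P4HA1 was at -0.04 and HIF1A at -0.37 over all libraries. Within groups of libraries HIF1A ranged from -0.792 in epithelial glucose to 0.981 in epithelial insulin libraries, and P4HA1 from -0.372 in epithelial to 0.507 in stromal glucose libraries.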

How the data were processed

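Total RNA of epithelial and stromal cells was sequenced from 30 libraries (stranded kit, single-end reads). The authors inspected the reads with FastQC, trimmed them with Cutadapt and filtered them with fastq_quality_filter, used Rsubread for alignment against the bovine genome (Ensembl release 96), kept uniquely mapped reads and deposited whole-number counts per gene from featureCounts. Tool versions are not given in the sources used here. Further deposited tables hold the authors' own fold changes and p-values, of which only the gene names and gene types were used, and 14951 of 27607 genes have a name. No genome was used, so no coordinates or sequences are given.

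Counts were tested with edgeR 4.0.16 in R 4.3.3 (quasi-likelihood test, TMM, filterByExpr), on the 6 libraries compared, or the 12 for an interaction, with Benjamini-Hochberg adjustment over all genes tested and calls at an adjusted p under 0.05 with a log2 fold change beyond 0.1. Background shares are over protein-coding genes. The replicate number was a block, following the paired sample design of the study's methods. Same-numbered libraries deviated together in all 8 treatment comparisons (correlations of 0.208 to 0.854), although for glucose in stromal cells not every library correlated best with its own number. The chi-square per degree of freedom between replicates was 17.4 or more, so none was a copy of another. CPM were computed from library totals. An exact permutation test of 3 pairs cannot go below 0.25 and was not used. The tests were also run on simulated counts for some of the insulin comparisons, and no glucose comparison was simulated.

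The members and the gene lists (HIF regulators, VEGF ligands and receptors, adrenomedullin receptors, other HIF targets, glycolysis, and markers of epithelial, stromal, endothelial, immune and smooth muscle cells) were chosen with earlier results of these data known. All members were named with their levels. Fold changes were named at an unadjusted p under 0.05, for VEGFA and HIF1A in every treatment comparison, and for all members between cell types at vehicle and 5 mM glucose. Pathway genes were named where called at vehicle or 5 mM glucose, the called HIF targets and glycolysis genes in part, or as the 3 with the smallest p of a list in 2 stromal comparisons. The alternatives were no block, the Wald test of DESeq2 1.42.0, its size factors, no filter, all libraries in one fit, and leaving out each replicate.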

Additional observations from a re-analysis of the deposited data

Results flagged for a closer look

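P4HA1, the collagen prolyl hydroxylase subunit, had glucose differences of opposite direction in the cell types, higher at 50 mM in all 3 epithelial pairs and lower in all 3 stromal pairs. The epithelial minus the stromal log2 fold change was 1.14 (SE 0.399), with an unadjusted p-value of 0.0225 and an adjusted p of 0.640 by edgeR, so the test of the difference did not pass after adjustment. Leaving out each replicate in turn gave 0.91 to 1.24.

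EGLN3, the HIF-induced prolyl hydroxylase, differed between the cell types in its change from 1 to 10 ng/mL insulin, with -2.64 (SE 0.357, adjusted p = 0.00151 by edgeR). The stromal values were 2.59, 0.848 and 0.888 CPM at 1 ng/mL and 28.5, 0.877 and 1.25 CPM at 10 ng/mL, and the epithelial markers in the library with 28.5 CPM summed to 360 CPM against 20.4 and 52.6 CPM in the others of that dose. Without replicate 1 the difference was -0.34 (adjusted p = 0.937). The part of epithelial RNA in this difference was not tested.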

How the results depend on the processing

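Depth limits CA9 and ANKRD37 in stromal libraries of the insulin experiment, and intervals were wide in the glucose comparisons. Of 401 alternatives to 51 fold changes, 25 turned the direction, in 15 results. The cause of these changes was not tested. Fits with a left-out replicate hold fewer libraries, and the fit without the filter tests more genes. Members called moved as follows. Without the replicate block 0 were called at 50 mM glucose between cell types (3 with it) and 0 in the interaction of 10 against 1 ng/mL (1 with it), and the block changed no other count by over 1.5 times. Pairing was not uniform between cell types, with all correlations above 0.1 in 3 of 5 comparisons. DESeq2 called 1 member for glucose in stromal cells (CA9), 2 in the glucose interaction (CA9, EGLN3) and 0 in the interaction of 10 against 1 ng/mL. With no filter, 1 was called in stromal cells at 1 ng/mL against vehicle (EGLN3), 2 at 10 against 1 ng/mL (EGLN3, VEGFA), 1 in the 1 ng/mL interaction (EGLN3) and 2 in that of 10 against 1 ng/mL (EGLN3, VEGFA). Leaving out replicates gave 0 to 1 at 1 ng/mL against vehicle in epithelial (ADM without replicate 2) and stromal cells (EGLN3 without replicate 3), 0 to 1 at 10 ng/mL against vehicle in stromal cells (EGLN3 without replicate 2), 1 to 2 at 10 against 1 ng/mL in stromal cells, 0 to 4 between cell types at 50 mM, and 0 to 1 in each of the glucose (EGLN3 without replicate 1), 1 ng/mL (EGLN3 without replicate 3) and 10 ng/mL (EGLN3 without replicate 2) interactions.

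Fold changes that turned direction were close to 0 or wide. HIF1A in stromal cells at 10 ng/mL against vehicle was 0.0011 with no block, 0.00061 with DESeq2, 0.00061 with its size factors, 0.0092 with no filter and 0.0041 in one fit. HIF1A between cell types at vehicle was -0.010 with no block and -0.0066 in one fit. Leaving out replicates, HIF1A ranged from -0.17 to 0.86 for glucose, -0.073 to 0.072 at 1 ng/mL and -0.020 to 0.12 at 10 against 1 ng/mL in epithelial cells, from -0.015 to 0.022 at 10 ng/mL and -0.012 to 0.054 at 10 against 1 ng/mL in stromal cells, and from -0.17 to 0.26 between cell types at vehicle. VEGFA ranged from -0.68 to 0.18 for glucose, -0.066 to 0.088, -0.015 to 0.030 and -0.059 to 0.080 for insulin at 1 and 10 ng/mL against vehicle and 10 against 1 ng/mL in epithelial cells, from -0.0076 to 0.42 for glucose in stromal cells and from -0.18 to 1.45 between cell types at 5 mM. There ADM ranged from -1.42 to 1.12, NDRG1 from -0.19 to 1.04 and EGLN1 from -0.26 to 0.41. Of 100 group means 1 moved by more than its spread, HIF1A in epithelial cells at 50 mM, which was at 313 CPM with TMM-scaled totals.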
